A study of Mus musculus with 12 samples.

Results

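The comparison set fat from obese mice that lack the ubiquitin ligase Siah2 against fat from obese wild type mice, across all probes of an Illumina mouse bead array. It was made of 6 of the series' 12 arrays, the samples titled Siah2KO_HFD and WT_HFD, with 3 RNA pools on each side. Siah2KO_HFD pools came from male C57BL/6J mice with a global knockout of Siah2, weaned at 4 weeks of age onto a 45% fat diet and kept on it to 20 weeks. WT_HFD pools came from wild type males of the same strain, diet and age. Siah2KO_LFD and WT_LFD pools, 3 each, came from the same genotypes fed 10% fat for the same time. Equal amounts of epididymal fat RNA from several animals made up a pool. The Siah2KO_HFD group held 8 animals in pools of 3, 3 and 2, and each other group held 10 animals in pools of 3, 3 or 4. The knockout is global, so no cell type of the fat pad was singled out. Whether the genotypes were littermates is not stated in the labels. The errors and p-values measure the spread between pools of animals, not between single animals.

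Siah2 is a RING-finger E3 ubiquitin ligase, an enzyme that marks other proteins for breakdown by the proteasome. It is known for its part in hypoxia signalling, where it targets prolyl hydroxylases that limit HIF-1 alpha, and Siah1a and Siah1b are its close relatives. Epididymal fat is the large visceral fat pad of male mice. With obesity it takes up many macrophages, which gather around dying adipocytes, swell with lipid and express lysosomal and lipid-handling genes.

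In obese fat, 10 genes fell in the knockout and none rose at an adjusted p under 0.05, out of 11883 genes tested (0.0842% called). The test was limma's moderated test with one mean per group over all 12 arrays and Benjamini-Hochberg adjustment, on log2 of the authors' normalized intensity plus 50. A log2 difference of at least 1 was seen in 207 genes in the higher direction (1.74%) and in 34 in the lower (0.286%). These 2 counts include Siah2KO_HFD pool 2 and were not computed without it. Leaving it out moved the epididymal genes Wfdc13 from 2.24 to -0.25, Lcn5 from 1.57 to -0.70 and Adam7 from 1.42 to -0.95. The seminal vesicle gene Spink3 moved from 1.55 to 2.55. An unadjusted p under 0.05 was met by 497 genes in the higher direction (4.18%) and by 878 in the lower (7.39%). Leaving out 1 of the 12 arrays at a time gave 4 to 33 genes: 4 without Siah2KO_HFD pool 1, Siah2KO_HFD pool 2, WT_HFD pool 1, WT_HFD pool 2 or WT_LFD pool 2, 6 without Siah2KO_LFD pool 1 and 33 without Siah2KO_LFD pool 2. The median difference over all genes was -0.02 on the log2 scale. Among the genes that fell, 8 are described here. Gdf3, Kcnn4, Adam8, Arhgap9 and Sh3bp2 are known from leukocytes, and Vsig8, Syngr1 and Hmga1 complete the 8. All 10 had 3 knockout pools below all 3 wild type pools, as did 11.8% of all genes tested (1402 genes), while 6.32% (751 genes) lay higher without overlap.

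**Figure D1:**
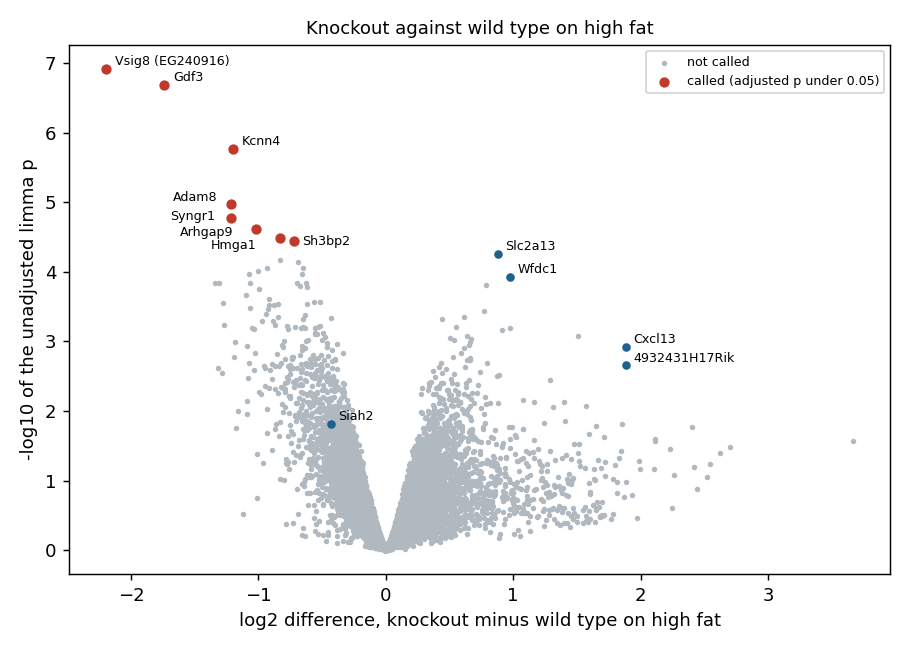
Log2 difference of 11881 genes tested, knockout minus wild type on high fat (x axis), against -log10 of the unadjusted limma p (y axis). Red points are the 8 called genes described in the text, all with a negative difference, from -2.19 for Vsig8 to -0.72 for Sh3bp2, and blue points are 5 other genes described in the text.

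The labels were checked on the targeted gene. Siah2 intensity was 55.3, 68.2 and 45.0 in the Siah2KO_HFD pools, against 111, 78.6 and 89.0 in the WT_HFD pools. The knockout pools lay below the wild type pools without overlap (log2 difference -0.43, SE 0.15, adjusted p = 0.337), and an exact two-sided permutation test gave p = 0.1, the smallest that 3 against 3 allows. All 6 values were above the noise floor of 19.9, the 99th percentile of the size of the values below 0 in the table. Where the probe lies relative to the deleted part is unknown here, so the probe is a limited check of the knockout. Siah1a, the closest relative, measured 411, 426 and 467 in the Siah2KO_HFD pools, against 381, 531 and 440.3 in the WT_HFD pools, and the groups overlapped (log2 difference -0.04, SE 0.13, adjusted p = 0.926). Siah1b measured 86.8, 73.4 and 90.1 in the Siah2KO_HFD pools, against 85.1, 92.6 and 112 in the WT_HFD pools, also overlapping (log2 difference -0.13, SE 0.12, adjusted p = 0.682).

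The 6 arrays held white fat: all 6 adipocyte markers (Adipoq, Plin1, Cidec, Fabp4, Lep, Lipe) were above the floor on each, with summed intensities of 96168 to 108263 in Siah2KO_HFD pools and 94813 to 104554 in WT_HFD pools. Siah2KO_HFD pool 2 stood apart. It correlated with the wild type arrays at 0.938 to 0.952, against 0.974 to 0.988 for the other 2 knockout pools, and its epididymal marker sum was 40437, with 162 and 102 in Siah2KO_HFD pools 1 and 3 and 497 to 716 in WT_HFD pools. Of 9 epididymal markers tested, Crisp1, Adam7, Lcn5 and Lcn8 carried that sum, and seminal vesicle markers summed to 49.8 to 80.3 in Siah2KO_HFD pools and 38.8 to 99.9 in WT_HFD pools. Results were therefore also computed without Siah2KO_HFD pool 2. That leaves the higher epididymal sums in the WT_HFD pools, where 5, 6 and 5 of the 9 markers were above the floor. WT_HFD pool 2 was low in some genes, among them Fabp4 at 582. The mean log2 level of 25 adipocyte genes was 11.61 there, with 11.60 and 11.95 in WT_HFD pools 1 and 3. Between 14386 and 14433 of 25697 probes were above the floor on an array, and the number of arrays limits the precision.

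Vsig8 had the largest fall. It encodes a membrane protein of the immunoglobulin superfamily and is listed on this array under the older symbol EG240916. Its intensity was 38.0, 68.9 and 105 in the Siah2KO_HFD pools, against 484, 563 and 422 in the WT_HFD pools (log2 difference -2.19, SE 0.18, adjusted p = 0.00122). All 3 knockout pools were far below the lowest wild type pool. RefSeq gives this gene a pair of start windows on build GRCm38.p6, shown because the gene had the largest fall. A search for letters bound by macrophage transcription factors in 300-base windows (250 before to 50 after the start, both strands) used GAGGAAGT for PU.1, TGANTCA for AP-1 and TCACGTG for the E-box of MiT factors. The PU.1 letters, in capitals in either strand's spelling, occur in 3 of the 9 windows found for 6 of the 10 called genes, and in 3.20% of all 32851 windows of the mouse genome. They occur in both Vsig8 windows and in 1 of 2 Sh3bp2 windows, and the AP-1 and E-box letters, which 7.81% and 3.77% of all windows hold, are in none of the 9. The motifs do not overlap each other there. A match is a description of the letters and no evidence of binding.
Vsig8 chr1:172559656-172559955: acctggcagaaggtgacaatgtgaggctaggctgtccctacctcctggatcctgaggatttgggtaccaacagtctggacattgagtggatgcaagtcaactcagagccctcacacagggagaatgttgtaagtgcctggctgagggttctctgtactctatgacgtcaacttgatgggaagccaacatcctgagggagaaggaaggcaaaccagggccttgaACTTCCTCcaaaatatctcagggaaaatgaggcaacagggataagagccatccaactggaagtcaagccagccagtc
Vsig8 chr1:172555688-172555987: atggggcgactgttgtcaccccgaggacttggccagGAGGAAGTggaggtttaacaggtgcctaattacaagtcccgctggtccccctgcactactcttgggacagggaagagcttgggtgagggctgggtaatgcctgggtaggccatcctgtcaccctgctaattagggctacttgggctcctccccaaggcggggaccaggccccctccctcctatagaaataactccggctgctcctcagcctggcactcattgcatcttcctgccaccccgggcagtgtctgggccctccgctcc
Sh3bp2 chr5:34549326-34549625: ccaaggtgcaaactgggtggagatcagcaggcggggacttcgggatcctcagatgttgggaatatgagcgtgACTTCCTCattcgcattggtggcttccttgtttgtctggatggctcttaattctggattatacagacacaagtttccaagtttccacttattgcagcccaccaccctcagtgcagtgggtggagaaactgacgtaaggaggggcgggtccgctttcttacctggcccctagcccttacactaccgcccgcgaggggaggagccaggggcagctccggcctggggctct

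Gdf3, a TGF beta family ligand known in mouse from adipose macrophages, measured 12.8, 20.4 and 11.9 in the Siah2KO_HFD pools, against 209, 183 and 119 in the WT_HFD pools (log2 difference -1.74, SE 0.15, adjusted p = 0.00122). Knockout pools 1 and 3 were below the floor and pool 2 just above it, so the knockout level is only a bound: Gdf3 was at least 3.10-fold lower on the scale of intensity plus 50, with knockout pools below the floor set at it. Only genes above the floor on at least 3 of 12 arrays were tested. Gdf3 was above it on 4, the 3 WT_HFD pools and Siah2KO_HFD pool 2. It was therefore tested only because of the group where it was high. Kcnn4, a calcium-activated potassium channel of blood cells, measured 73.7, 70.7 and 85.2 in the Siah2KO_HFD pools, against 243, 226 and 253 in the WT_HFD pools (log2 difference -1.20, SE 0.13, adjusted p = 0.00508). Vsig8, Gdf3 and Kcnn4 were each still called when any 1 of the 6 high fat pools was left out.

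Adam8, a membrane metalloprotease of leukocytes, measured 66.8, 85.8 and 109 in the Siah2KO_HFD pools, against 330.3, 248 and 228 in the WT_HFD pools (log2 difference -1.21, SE 0.16, adjusted p = 0.0213). Its other probe gave the same log2 difference of -1.21 but an adjusted p of 0.114 in the fit of every probe. Syngr1, a synaptogyrin of vesicle membranes, measured 47.8, 66.6 and 73.6 in the Siah2KO_HFD pools, against 251, 197 and 187 in the WT_HFD pools (log2 difference -1.21, SE 0.17, adjusted p = 0.0288). The other Syngr1 probe gave -0.81, with a limma adjusted p of 0.177 in the fit of every probe. Arhgap9, a GTPase-activating protein of haematopoietic cells, measured 165, 127 and 185 in the Siah2KO_HFD pools, against 395, 356 and 362 in the WT_HFD pools (log2 difference -1.02, SE 0.14, adjusted p = 0.0357). Over 28 alternative settings (27 for genes not tested in 1 of them), Vsig8 and Gdf3 were called in 25, Kcnn4 in 23, Adam8 in 15, Syngr1 in 12, Arhgap9 in 11, Hmga1 in 8 and Sh3bp2 in 7.

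Hmga1, an architectural chromatin protein, measured 544, 561 and 664 in the Siah2KO_HFD pools, against 1182, 1056 and 1021 in the WT_HFD pools (log2 difference -0.83, SE 0.12, adjusted p = 0.0432). It has pseudogene copies that a probe may share. Its dimmer second probe gave a log2 difference of -0.39 (limma adjusted p = 0.417 in the fit of every probe), so the Hmga1 value is uncertain. Sh3bp2, an adaptor protein of immune cells and osteoclasts, had the smallest fall and the highest level, 755, 761 and 762 in the Siah2KO_HFD pools, against 1471, 1188 and 1217 in the WT_HFD pools (log2 difference -0.72, SE 0.11, adjusted p = 0.0432). Its 3 knockout pools were nearly identical. When Siah2KO_HFD pool 2, the one with the highest epididymal marker sum, was left out, 4 genes were called. Vsig8, Gdf3 and Kcnn4 were among them, with differences of -2.20, -1.80 and -1.17. With only the 6 high fat arrays in the fit, none of the 10 passed, and the lowest adjusted p was 0.0925. The differences were the same in size there, since only the estimate of spread changed.

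**Figure D2:**
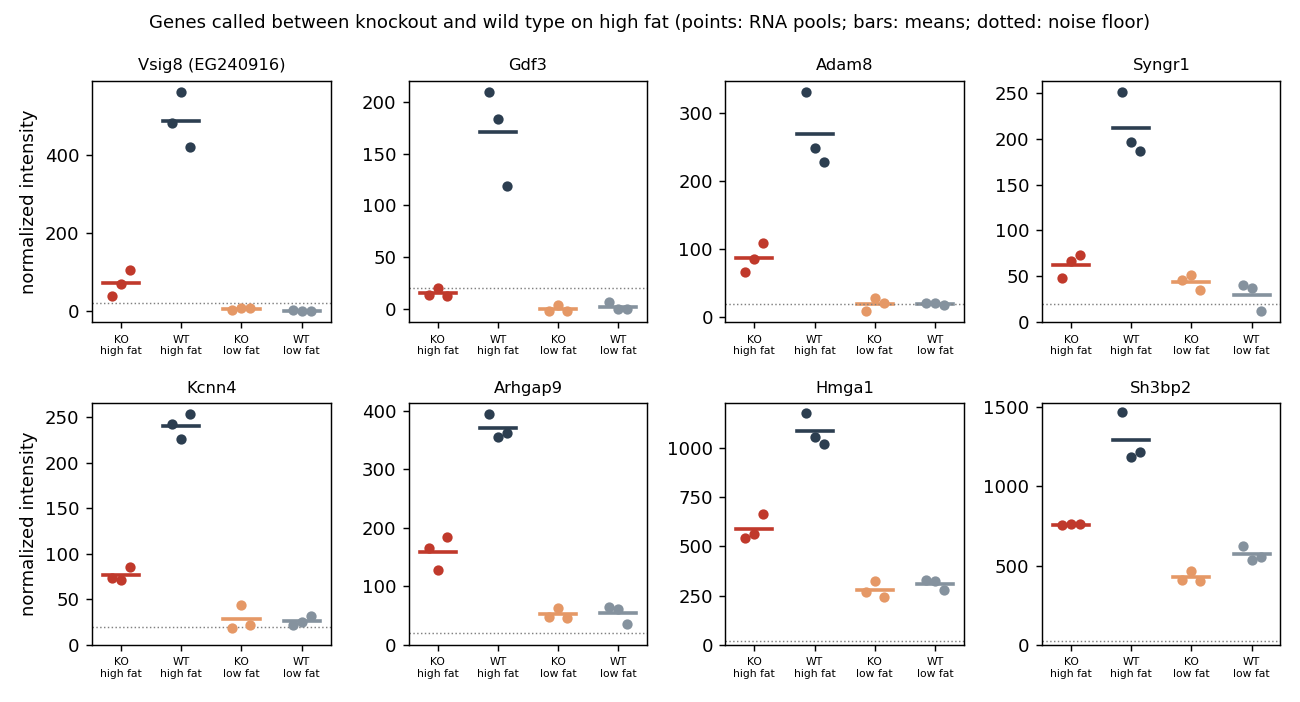
Normalized intensity of 8 called genes in each RNA pool (points) with group means (bars), for knockout and wild type on high fat and then on low fat, and the noise floor of 19.9 as a dotted line. On high fat the 3 knockout pools lie below the 3 wild type pools in every panel, and on low fat the genotypes overlap in every panel except Sh3bp2.

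On low fat the same 8 genes showed no genotype difference that passed, with log2 differences from -0.39 for Sh3bp2 to 0.25 for Syngr1 (adjusted p of 0.0528 to 0.95). Vsig8 measured 0.81, 6.04 and 5.80 in Siah2KO_LFD pools, against 1.77, 0.11 and -1.89 in WT_LFD pools, all near or below 0, and Kcnn4 measured 17.8, 44.1 and 21.1 in Siah2KO_LFD pools, against 21.6, 25.4 and 31.2 in WT_LFD pools. The difference between the diets was itself tested: Vsig8, Gdf3 and Kcnn4 passed (-2.31, -1.68 and -1.22, high fat minus low fat). On low fat all 6 pools of Vsig8 and of Gdf3 were below the floor, and with values below it set at it the differences were -2.19, -1.63 and -1.23. All 3 lost the call with the epididymal or the macrophage mean as a covariate, without both knockout second pools, and without the tract-rich or muscle-rich arrays (Siah2KO_HFD pool 2, Siah2KO_LFD pool 1). Vsig8 lost it in these 4 of 26 alternatives, Gdf3 in 7, which include leaving out Siah2KO_HFD pool 1, WT_HFD pool 2 or WT_LFD pool 2, and Kcnn4 in 16, which include leaving out any 1 of 8 arrays. The other 5 did not pass, with adjusted p from 0.0616 to 0.243. In wild type mice the 8 genes were higher on high fat than on low fat, by 1.11 for Sh3bp2 to at least 2.94 for Vsig8 on the log2 scale with values below the floor set at it (all 3 WT_LFD pools of Vsig8 and of Gdf3), in a comparison that shares the WT_HFD arrays with the one above. Over all genes, the genotypes differed on low fat in 916 (7.71%), a count that was 25 without WT_LFD pool 2, 33 without Siah2KO_LFD pool 2, 64 without Siah2KO_LFD pool 3, 169 without WT_LFD pool 1, 481 without WT_LFD pool 3, 568 without Siah2KO_HFD pool 1 and 1552 without Siah2KO_LFD pool 1. The diets differed in wild type in 4652 (39.1%), and 12 genes (0.101%) differed in genotype effect between the diets. Epididymal marker sums were 88507 to 158072 in WT_LFD pools, 5372 to 56363 in Siah2KO_LFD pools and 497 to 716 in WT_HFD pools. White fat marker sums were 57914 to 63236 in WT_LFD pools, against 94813 to 104554 in WT_HFD pools. The part of epididymal RNA in the diet and low fat values was not tested.

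**Figure D3:**
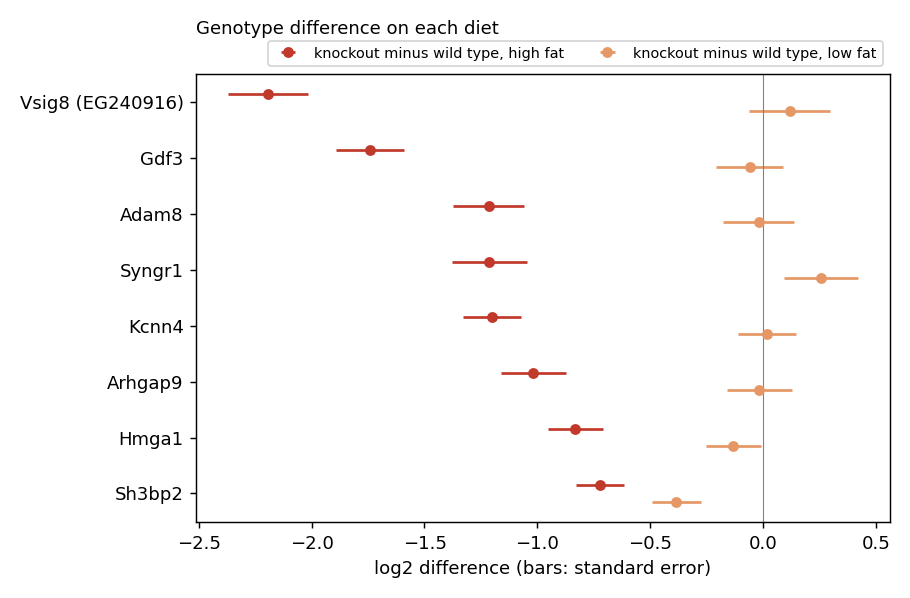
Log2 difference between knockout and wild type for 8 called genes on high fat (red) and on low fat (orange), with standard errors from limma. The high fat differences run from -2.19 to -0.72 and the low fat ones from -0.39 to 0.25.

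No gene was called higher in the knockout. The largest differences in that direction, among genes with an unadjusted p under 0.01 and groups that did not overlap, were those of Cxcl13 and Erich6. Cxcl13, the chemokine that attracts B cells, measured 387, 231 and 333 in the Siah2KO_HFD pools, against 49.2, 66.0 and 31.0 in the WT_HFD pools (log2 difference 1.89, SE 0.43, adjusted p = 0.159). Erich6, listed as 4932431H17Rik, measured 186, 426 and 221 in the Siah2KO_HFD pools, against 25.2, 30.7 and 49.7 in the WT_HFD pools (log2 difference 1.88, SE 0.47, adjusted p = 0.191). It adjoins Siah2 on chromosome 3 in the RefSeq gene order, and on low fat it measured 705, 272 and 441 in Siah2KO_LFD pools, against 56.6, 269 and 346 in WT_LFD pools (1.05). Among 11 genes tested within 10 places of Siah2, Erich6 (higher) and P2ry14 (lower) had an unadjusted limma p under 0.05, a share near the 4.18% of all genes higher and 7.39% lower. Clrn1, which adjoins Siah2 on the other side, gave -0.13. P2ry14, a receptor for UDP-sugars, measured 601, 496 and 698 in Siah2KO_HFD pools, against 904, 955 and 696 in WT_HFD pools (log2 difference -0.48, SE 0.20, adjusted p = 0.394).

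Slc2a13, a proton-coupled myo-inositol transporter, had the lowest p in the higher direction. Its intensity was 446, 428 and 450.03 in the Siah2KO_HFD pools, against 209, 201 and 241 in the WT_HFD pools (log2 difference 0.88, SE 0.14, adjusted p = 0.0599). The 3 knockout pools were nearly alike and all lay above the wild type pools. On low fat it rose (0.98, adjusted p = 0.0111). Wfdc1, a secreted protein of the whey acidic protein family, measured 282, 248 and 202 in the Siah2KO_HFD pools, against 93.2, 88.3 and 115 in the WT_HFD pools (log2 difference 0.98, SE 0.17, adjusted p = 0.072), and on low fat its difference was -0.85. Slc15a2, a proton-coupled peptide transporter, measured 572, 572 and 688 in the Siah2KO_HFD pools, against 236, 144 and 172 in the WT_HFD pools (log2 difference 1.51, SE 0.33, adjusted p = 0.141). The small endosomal GTPase Rab4a measured 564, 414 and 374 in the Siah2KO_HFD pools, against 233, 201 and 205 in the WT_HFD pools (log2 difference 0.91, SE 0.19, adjusted p = 0.124), and Aldh1a1, a retinaldehyde dehydrogenase, 3421, 6151 and 3668 in the Siah2KO_HFD pools, against 2344, 1916 and 2687 in the WT_HFD pools (log2 difference 0.88, SE 0.27, adjusted p = 0.269).

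The rest of these genes were Mlf1 (1.57), Cldn10 (1.40), Cxadr (1.08), LOC100046254 (0.97), Slc44a3 (0.89), Ppp2r2b, Enkur (listed as 4933434I06Rik) and Fank1. Cldn10, a tight junction protein, measured 1916, 555 and 639 in the Siah2KO_HFD pools, against 338, 256 and 328 in the WT_HFD pools, so knockout pool 1 carried most of its difference. Ppp2r2b, Enkur and Fank1 were below the floor in all 3 wild type pools and above it in all 3 knockout pools. They were at least 1.74, 1.98 and 1.71-fold higher on the scale of intensity plus 50. Cxadr, Cldn10 and the keratin Krt8 (2.11) are expressed in epithelia, and Siah2KO_HFD pool 2 had the highest epididymal marker sum of the high fat pools. Without that pool the differences were 1.71 for Cldn10, 1.06 for Cxadr, 1.46 for Krt8, 2.07 for Cxcl13, 1.58 for Erich6 and 0.62 for Aldh1a1, none of them called. In the lower direction the same rule added Arhgap25 (-1.34), Hk3 (-1.31), Anpep (-1.28), Ear4 (-1.32) and Ear2 (-1.29), with adjusted p from 0.072 to 0.202. Hk3, a hexokinase of myeloid cells, measured 277, 353 and 399.8 in the Siah2KO_HFD pools, against 1085, 939 and 749.9 in the WT_HFD pools. Ear2 and Ear4 are near-identical members of the eosinophil-associated ribonuclease family, and their probes may share signal.

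Pan-macrophage genes had the lowest median of the 49 lists. The lists and their members were chosen with earlier results of these data known, so the counts describe the lists and test none. Of the 19 pan-macrophage genes tested, none was called, but all 19 had a difference below 0 (53.8% of all genes did), 10 lay lower without overlap (11.8% over all genes) and 8 had an unadjusted p under 0.05 in the lower direction (7.39%). Their median was -0.52 on the log2 scale, against -0.02 over all genes. Tyrobp, the signalling adaptor of myeloid receptors, measured 1105, 1459 and 1479.6 in the Siah2KO_HFD pools, against 3234, 2905 and 2499 in the WT_HFD pools (log2 difference -1.07, SE 0.27, adjusted p = 0.191). Cd68, a lysosomal protein of macrophages, measured 1512, 1969 and 2492 in the Siah2KO_HFD pools, against 5111, 4649 and 3115 in the WT_HFD pools (log2 difference -1.09, SE 0.33, adjusted p = 0.266). The complement gene C1qa measured 649, 658 and 678 in the Siah2KO_HFD pools, against 1092, 1006 and 1096 in the WT_HFD pools (log2 difference -0.65, SE 0.19, adjusted p = 0.239). Adgre1 (F4/80, listed as Emr1) measured 3673, 4534 and 4686 in the Siah2KO_HFD pools, against 7301, 4609 and 4740.3 in the WT_HFD pools, and here the groups overlapped (log2 difference -0.34, SE 0.23, adjusted p = 0.576). In whole fat, fewer macrophages and less RNA per macrophage cannot be told apart.

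The level of the whole list, the mean log2 value, was 10.35, 10.37 and 10.48 in the Siah2KO_HFD pools, against 11.17, 10.86 and 10.71 in the WT_HFD pools. Every knockout pool was below every wild type pool, and WT_HFD pool 1 was the highest. The median difference was -0.44 without Siah2KO_HFD pool 2 and -0.34 without WT_HFD pool 1. The summed intensity of 5 defining macrophage markers was 8525, 9985 and 11523 in the Siah2KO_HFD pools, against 19360, 14507 and 12889 in the WT_HFD pools.

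The lipid-associated macrophage genes, expressed in foamy macrophages around dying adipocytes, had the next lowest median. Of the 20 tested, 1 was called (Syngr1), 12 lay lower without overlap (11.8% over all genes) and 10 had an unadjusted p under 0.05 (7.39%). The members, Syngr1 among them, were chosen with earlier results of these data known, so these counts are a description only. The median was -0.47. Trem2, the lipid-sensing receptor of these cells, measured 932, 1633 and 1678 in the Siah2KO_HFD pools, against 3908, 3261 and 2501 in the WT_HFD pools (log2 difference -1.18, SE 0.26, adjusted p = 0.15). Gpnmb, a lysosomal glycoprotein, measured 7360.2, 12859.5 and 14886 in the Siah2KO_HFD pools, against 24973, 22679 and 18365 in the WT_HFD pools (log2 difference -0.96, SE 0.24, adjusted p = 0.191). Dcstamp, needed for the fusion of macrophages and osteoclasts and listed as Tm7sf4, measured 40.2, 50.03 and 66.7 in the Siah2KO_HFD pools, against 145, 122 and 126 in the WT_HFD pools (log2 difference -0.83, SE 0.13, adjusted p = 0.0654). With the pan-macrophage mean of each array in the model, an alternative chosen after seeing the data, the median of this list was -0.21.

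Genes of resident or alternatively activated macrophages had a median of -0.06 over 15 genes, and 1 lay lower without overlap (11.8% over all genes). Of the 15, 8 were below 0 (53.8% of all genes were) and 7 above, from -0.61 for Folr2 to 0.51 for Arg1. Without Siah2KO_HFD pool 2 that median was 0.06. Folr2, a folate receptor of resident macrophages, measured 846, 771 and 1064 in the Siah2KO_HFD pools, against 1399, 1408 and 1342 in the WT_HFD pools (log2 difference -0.61, SE 0.40, adjusted p = 0.559). Retnla, a secreted product of alternatively activated macrophages, measured 12384, 7759.96 and 15324 in the Siah2KO_HFD pools, against 13020.4, 15112 and 17777 in the WT_HFD pools (log2 difference -0.41, SE 0.32, adjusted p = 0.624), with overlapping groups. The difference between this list and the pan-macrophage list was not tested.

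**Figure D4:**
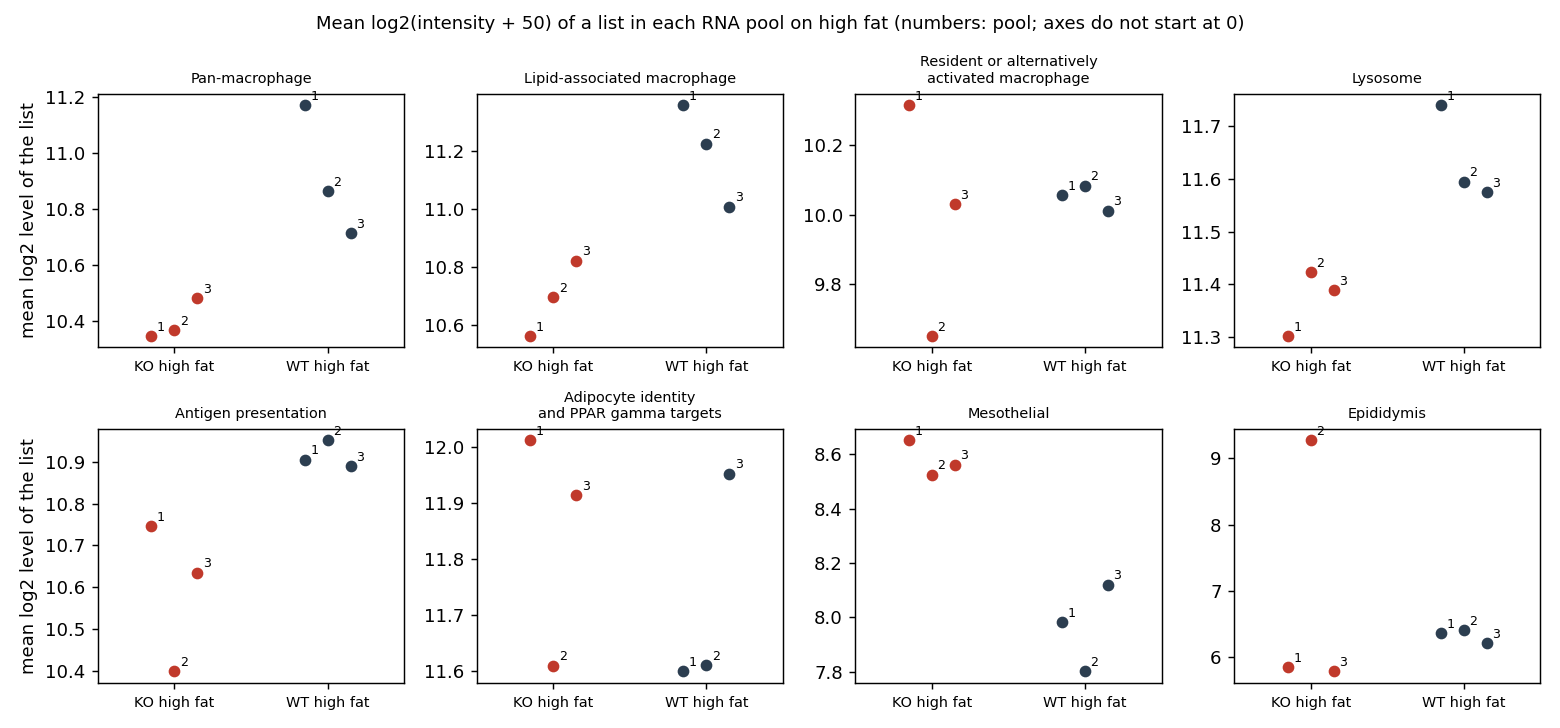
Mean log2(intensity + 50) of 8 gene lists in each knockout pool (red, left) and wild type pool (dark, right) on high fat, with the pool number beside each point. The pan-macrophage, lipid-associated, lysosome and antigen presentation lists are lower in all 3 knockout pools, the resident macrophage and adipocyte lists overlap, and the epididymis list is high in knockout pool 2.

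The lysosome and antigen presentation lists also had medians below that of all genes. The lysosome list is not separate from the macrophage lists. It shares Ctss with the pan-macrophage list and Ctsb, Ctsd, Ctsk and Ctsl with the lipid-associated list. Of 20 lysosomal genes 9 lay lower without overlap (11.8% over all genes), 8 had an unadjusted p under 0.05 in that direction (7.39%) and none was called, with a median of -0.32. Gusb, the enzyme beta-glucuronidase, measured 3720.4, 3802 and 3954 in the Siah2KO_HFD pools, against 6638, 6249 and 5387 in the WT_HFD pools (log2 difference -0.66, SE 0.11, adjusted p = 0.0718), and the hexosaminidase subunit Hexa measured 2010.5, 2172 and 2292 in the Siah2KO_HFD pools, against 3389, 2948 and 3236 in the WT_HFD pools (log2 difference -0.55, SE 0.12, adjusted p = 0.124). Atp6v1b2, a subunit of the proton pump that acidifies lysosomes, measured 5237, 4883 and 4995 in the Siah2KO_HFD pools, against 6905, 7565 and 5884 in the WT_HFD pools (log2 difference -0.42, SE 0.10, adjusted p = 0.191). All 3 knockout pools of each of these were below the wild type pools. Of 14 antigen presentation genes 6 lay lower without overlap (11.8% over all genes), 6 had an unadjusted p under 0.05 in that direction (7.39%) and none was called, with a median of -0.33. H2-Ab1, an MHC class II chain, measured 14015, 11491 and 13902 in the Siah2KO_HFD pools, against 20249, 20249 and 20377 in the WT_HFD pools (log2 difference -0.63, SE 0.15, adjusted p = 0.161). H2-Eb1, a second class II chain, gave -0.67, and H2-DMa, which loads peptide on class II, gave -0.70. With the pan-macrophage mean in the model their medians were -0.13 and -0.12.

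Among cytokines and chemokines, 6 of 24 lay lower without overlap (11.8% over all genes) and 1, Cxcl13, higher (6.32% over all genes), with a median of -0.18. Il1rn, the interleukin 1 receptor antagonist, measured 105, 177 and 252 in the Siah2KO_HFD pools, against 495, 399.7 and 320.5 in the WT_HFD pools (log2 difference -1.03, SE 0.24, adjusted p = 0.18). Tgfb1 gave -0.57 (adjusted p = 0.273). Of 21 chemokine and cytokine receptors 5 lay lower without overlap (11.8% over all genes) and 0 higher, with a median of -0.14: Csf2ra, the GM-CSF receptor alpha chain, measured 710.3, 712 and 975 in the Siah2KO_HFD pools, against 1497, 1571 and 1222 in the WT_HFD pools (log2 difference -0.81, SE 0.19, adjusted p = 0.159), and Il7r gave -1.16. The NF-kappa B list had a median of -0.10 over 19 genes. Ikbke, a kinase of this pathway known from obese fat, measured 115, 91.8 and 121 in the Siah2KO_HFD pools, against 182, 231 and 205 in the WT_HFD pools (log2 difference -0.68, SE 0.19, adjusted p = 0.221).

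Of 16 matrix metalloproteinases and inhibitors, 1 was called (Adam8), 7 lay lower without overlap (11.8% over all genes) and the median was -0.24. Mmp11 measured 184, 148 and 164 in the Siah2KO_HFD pools, against 260.3, 325 and 293 in the WT_HFD pools (log2 difference -0.67, SE 0.21, adjusted p = 0.28). Of 23 collagen and matrix genes 5 lay lower without overlap (11.8% over all genes), with a median of -0.12 and Col6a2, a type VI collagen chain, at 1520.5, 1061 and 1816 in the Siah2KO_HFD pools, against 2538, 2213 and 2629.7 in the WT_HFD pools (log2 difference -0.76, SE 0.25, adjusted p = 0.297). Cell cycle genes had a median of -0.25 over 20, and Birc5, expressed in dividing cells, measured 66.8, 102 and 123 in the Siah2KO_HFD pools, against 205, 196 and 144 in the WT_HFD pools (log2 difference -0.66, SE 0.17, adjusted p = 0.2). Among 16 immediate early genes (median -0.24), Atf3, a stress-induced transcription factor, measured 254, 556 and 591 in the Siah2KO_HFD pools, against 1299, 1038 and 905 in the WT_HFD pools (log2 difference -1.19, SE 0.29, adjusted p = 0.187). Atf3 was lowest in knockout pool 1.

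Adipocyte genes had a median slightly above that of all genes. Of 25 adipocyte identity and PPAR gamma target genes, none was called, 1 lay lower (11.8% over all genes) and 0 higher (6.32% over all genes) without overlap, and the median was 0.12. The gene that lay lower was Lpl, the lipase that releases fatty acids from circulating fat, at 30527, 27046 and 28889.6 in the Siah2KO_HFD pools, against 33049.8, 38856 and 35558 in the WT_HFD pools (log2 difference -0.31, SE 0.12, adjusted p = 0.367). Adiponectin, Adipoq, measured 36160.5, 31241 and 29197 in the Siah2KO_HFD pools, against 30229.7, 28889.6 and 33488 in the WT_HFD pools, and leptin, Lep, 37818, 37482 and 39783 in the Siah2KO_HFD pools, against 39268, 39783 and 38491 in the WT_HFD pools, both near the highest value in the table, 41361. Nampt, an adipokine enzyme of NAD synthesis, measured 986, 1110.3 and 1089 in the Siah2KO_HFD pools, against 849, 586 and 769.8 in the WT_HFD pools (log2 difference 0.52, SE 0.14, adjusted p = 0.211).

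Lists of fuel oxidation and of fatty acid synthesis had small positive medians. Without Siah2KO_HFD pool 1 the oxidation medians were below 0. They were -0.0047 for the citrate cycle and branched-chain list, -0.0015 for fatty acid oxidation and -0.014 for the respiratory chain. Fatty acid synthesis gave 0.04 without that pool. The citrate cycle and branched-chain list had 4 of 23 higher without overlap (6.32% over all genes) and 1 lower (11.8% over all genes), with a median of 0.08 and Aldh6a1, of valine breakdown, at 8856, 9432 and 10154 in the Siah2KO_HFD pools, against 6482, 5901 and 8628 in the WT_HFD pools (log2 difference 0.45, SE 0.13, adjusted p = 0.259). Fatty acid oxidation had a median of 0.03 over 21 genes and fatty acid synthesis 0.12 over 18. In the respiratory chain list, median 0.04, Ndufb5 measured 2660.1, 3219.98 and 2524 in the Siah2KO_HFD pools, against 2138, 911 and 2090.2 in the WT_HFD pools (log2 difference 0.78, SE 0.27, adjusted p = 0.334), with WT_HFD pool 2 far below the rest. In insulin signalling, Grb14, an adaptor that inhibits the insulin receptor, measured 1026, 925 and 844 in the Siah2KO_HFD pools, against 594, 391 and 488 in the WT_HFD pools (log2 difference 0.87, SE 0.23, adjusted p = 0.211), with all knockout pools higher. Gsta3, a glutathione transferase, measured 5621, 5054 and 4809 in the Siah2KO_HFD pools, against 2797, 3369.6 and 4166 in the WT_HFD pools (log2 difference 0.59, SE 0.14, adjusted p = 0.18).

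At the RNA level, lists tied to the function of Siah2 had medians near 0, with members on both sides. Siah2 marks proteins for breakdown, and protein levels were not measured here. Of 19 hypoxia genes none was called. An unadjusted limma p under 0.05 was met by 3 in the higher direction (4.18% over all genes) and 2 in the lower (7.39%). The hypoxia list had a median of -0.02 over 19 genes: P4ha1, a collagen prolyl hydroxylase, measured 102, 91.2 and 117 in the Siah2KO_HFD pools, against 148, 179.7 and 234 in the WT_HFD pools (log2 difference -0.62, SE 0.16, adjusted p = 0.191), and Vhl, the ligase that degrades HIF-1 alpha, 1122, 909.96 and 996 in the Siah2KO_HFD pools, against 808, 461 and 617 in the WT_HFD pools (log2 difference 0.67, SE 0.23, adjusted p = 0.321). The 12 reported partners of Siah2 had a median of -0.09, and 1 lay higher without overlap, a share near the 6.32% of all genes: Akap1, at 814, 699 and 715 in the Siah2KO_HFD pools, against 583, 680.4 and 628 in the WT_HFD pools. Nuclear receptors and PPAR gamma coregulators had a median of -0.03. Proteasome genes and ubiquitin ligases had medians of -0.0016 and 0.01, with Mdm2, the p53 ligase, at 1177, 1125 and 1216 in the Siah2KO_HFD pools, against 1492, 1664 and 1462 in the WT_HFD pools (log2 difference -0.38, SE 0.12, adjusted p = 0.279). Circadian genes had a median of -0.14 over 13, with 7 below 0 (53.8% of all genes were) and 6 above, and none was called. Of these 13, 2 had an unadjusted limma p under 0.05 in the higher direction (4.18% over all genes) and 3 in the lower (7.39%). Arntl measured 329, 344 and 481 in the Siah2KO_HFD pools, against 292, 173 and 221 in the WT_HFD pools (log2 difference 0.64, SE 0.20, adjusted p = 0.286). In the lower direction, Gm129 gave -0.60 and Per1 gave -0.54.

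**Figure D5:**
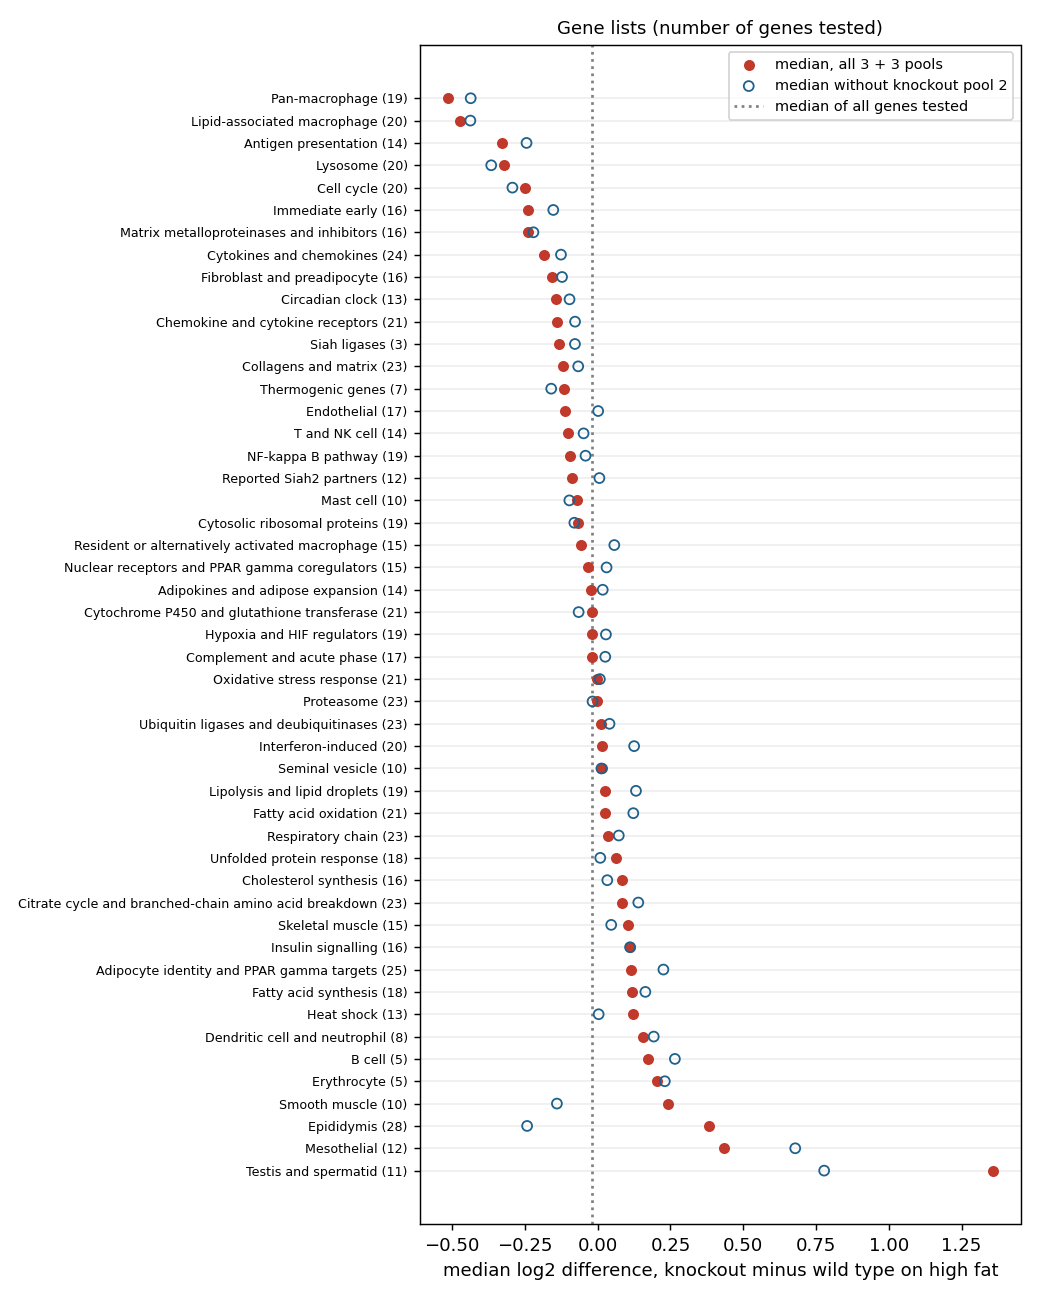
Median log2 difference, knockout minus wild type on high fat, of each of the 49 gene lists (number of genes tested in brackets), with all pools (red) and without knockout pool 2 (open blue), and the median of all genes as a dotted line. The pan-macrophage and lipid-associated macrophage lists lie lowest at -0.52 and -0.47, and the medians of the epididymis and smooth muscle lists are above 0 with pool 2 and below 0 without it.

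Mesothelial genes had a median of 0.44 over 12, with 3 higher without overlap (6.32% over all genes), and 0.68 without knockout pool 2. Their level was 8.65, 8.52 and 8.56 in the Siah2KO_HFD pools, against 7.98, 7.80 and 8.12 in the WT_HFD pools. The summed intensity of 4 defining mesothelial markers (Msln, Upk3b, Krt19, Lrrn4) overlapped between the genotypes. It was 1353, 1014 and 2583 in the Siah2KO_HFD pools, against 1217, 981 and 1243 in the WT_HFD pools. Krt8, a keratin that epididymal epithelium also expresses, measured 1119.6, 2020.4 and 195 in the Siah2KO_HFD pools, against 146, 125 and 165 in the WT_HFD pools (log2 difference 2.11, SE 0.81, adjusted p = 0.372). The epididymal list had a median of 0.38 with pool 2 and -0.24 without it. Spermatid genes had a median of 1.36 with widely spread pools: Prm1, a protamine, measured 1922, 6554 and 5675 in the Siah2KO_HFD pools, against 4925, 244 and 963 in the WT_HFD pools. B cell genes had a median of 0.17 over 5, with 2 higher without overlap (6.32% over all genes), of which Fcmr (listed as Faim3), the receptor for immunoglobulin M, measured 133, 174 and 167 in the Siah2KO_HFD pools, against 70.1, 94.2 and 100.01 in the WT_HFD pools (log2 difference 0.59, SE 0.27, adjusted p = 0.427). Lists of T cells, endothelium and fibroblasts had medians of -0.10, -0.11 and -0.16, with no gene called in any of them.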

How the data were processed

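Biotin-labelled total RNA of 12 pools was hybridised to Illumina mouse arrays. Per the submitters' processing notes the authors used GenomeStudio, and per the file headers the raw signals were exported by its GSGX 1.9.0 module. The deposited value table holds the authors' normalized intensity per probe on a linear scale, background-subtracted: 22.9% of values are below 0, and array medians run from 33.3 to 33.6. The other tables hold 144 array columns that no label ties to a sample. These were not used, apart from 2 signal columns that matched the rows of gene symbols to probes. Detection p-values, planned as the filter, are among them, so a noise floor replaced them. Of the 11883 symbols tested, 10872 matched RefSeq.

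Here 50 was added before log2. Probes above 19.9, the 99th percentile of the size of the negative values, on at least 3 of 12 arrays were kept (15907 of 25697), and the brightest probe of each gene was tested. limma 3.58.1 in R 4.3.3 fitted a mean per group over all 12 arrays (8 residual degrees of freedom) with Benjamini-Hochberg adjustment, and the fit was tested on simulated data. The 49 gene lists and the members were chosen with earlier results of these data known, so no list was tested as a set. Named are Siah2 and its relatives, up to 15 largest called changes each way (places filled by unadjusted p under 0.01 without overlap), per list up to 4 called genes or the 3 with the lowest p, cell type markers, neighbours of Siah2 and the genes of lowest p for the difference between diets. Of the called genes, 2 are counted but not reported here. Alternatives changed the offset, normalization, filter, probe choice, arrays and covariates.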

Additional observations from a re-analysis of the deposited data

Results flagged for a closer look

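The genotype difference was larger or smaller on high fat than on low fat for 12 genes that passed the test of that difference, and 11 of them are given here. Of the negative values, Vsig8 (EG240916) gave -2.31, Gdf3 -1.68, Kcnn4 -1.22 and Treml1, a receptor of platelets and megakaryocytes, -1.11 on the log2 scale. Treml1 measured 37.5, 37.3 and 46.7 in the Siah2KO_HFD pools, against 89.0, 86.0 and 61.4 in the WT_HFD pools, with a difference of -0.50 (limma adjusted p = 0.148), and 42.9, 32.5 and 33.0 in Siah2KO_LFD pools, against 3.70, 10.5 and 5.84 in WT_LFD pools, all 3 of these below the floor, with a difference of 0.60 in the other direction (limma adjusted p = 0.0238). With values below the floor set at it, the difference between diets was -0.80 for Treml1. Of the positive values, Wfdc1 gave 1.83. The other 6 were genes of the male tract: OTTMUSG00000015859 (Defb45) at 6.28, EG546038 (Spag11b) at 6.20, Svs3b at 5.74, Svs1 at 4.89, Svs5 at 4.02 and Svs4 at 3.32. These sizes rest on groups below the floor and are not exact: with values below it set at it they were 6.03, 6.63, 5.65, 4.97, 3.95 and 3.64 in the same order. OTTMUSG00000015859 was above the floor in the WT_LFD pools alone, so it was tested only because of them. In the 6 high fat pools these genes were at 33.3 or less, except EG546038 at 108 in WT_HFD pool 3. On low fat the knockout pools lay below the wild type pools for all 6 genes, and the seminal vesicle marker sum was 4931 to 6456 in Siah2KO_LFD pools and 55791 to 181872 in WT_LFD pools. The part of tract RNA in these values was not tested.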

How the results depend on the processing

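The count of genes called on high fat (10) was 0 with only the 6 high fat arrays, 3 with an offset of 16, 20 with an offset of 100, 0 with probes above the floor on all 12 arrays (where 3 of the 10 are still tested), 4 with the replicate block, 5 with the epididymal mean as a covariate, 17 with array quality weights, 4 without both knockout second pools, 3 without the tract-rich or muscle-rich knockout arrays (Siah2KO_HFD pool 2, Siah2KO_LFD pool 1) and 0 with the pan-macrophage mean as a covariate, the last 2 chosen after seeing the data. With the pan-macrophage mean in the model, the differences of the 10 genes ran from -2.09 (Vsig8) to -0.60 (Hmga1). Gdf3 gave -1.57 and Kcnn4 -1.04 there, and the lowest limma adjusted p of the 10 was 0.0544. Leaving out 1 array gave 4 to 33 genes, 33 without Siah2KO_LFD pool 2. Same-numbered high fat pools deviated with correlations of -0.20, 0.04 and 0.05, and differently numbered ones with -0.17 to 0.20. Deviations within a group of 3 sum to 0, so these values do not settle whether same-numbered pools were handled together.

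For the difference between diets (12 genes) the counts were 1 with probes above the floor on all arrays, 6 with the block, 3 with the epididymal mean, 83 with weights, 3 without both second pools, 4 without the tract- or muscle-rich arrays and 3 with the macrophage mean. Leaving out 1 array gave 5 to 124, 124 without Siah2KO_LFD pool 1. For low fat (916) they were 567 with offset 16, 509 unfiltered, 117 with the block, 4 with the epididymal mean, 3027 with weights, 53 without both second pools, 1763 without the tract- or muscle-rich arrays and 22 with the macrophage mean, and 25 (without WT_LFD pool 2) to 1552 (without Siah2KO_LFD pool 1) leaving out 1 array. For diet in wild type (4652) the epididymal mean gave 4 and the macrophage mean 2. The cause was not tested. The 8 genes described kept their negative sign under each setting in which they were tested. Signal near the floor limits Gdf3, and 3 pools a side limit the rest.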
